A study of Mus musculus with 12 samples.

Results

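Testes given either lncRNA8276 construct were compared as 1 set with testes of both control groups: 6 libraries of overexpression and knockdown against 6 libraries of control_5NC and control_3NC. The members were taken from the group labels alone, which place all 12 libraries of the study in this comparison. Each library is RNA-seq of total RNA from F1 mouse testis, with the strain labelled IRC mouse and no age given in the labels. The overexpression group (3 libraries, labelled 8276OV) and the knockdown group (3 libraries, labelled 8276KD) received virus that carries a construct to raise or to inhibit the RNA called lncRNA8276 in the labels, a long transcript that codes for no protein. The control groups, labelled 5NC and 3NC (3 libraries each), are taken as the controls because the design text lists 5NC before overexpression and 3NC before knockdown. The virus, its promoter and what the control groups received are not described in the labels. Whether replicate libraries are from different animals is not stated. A p-value here covers the spread among libraries of the same group, and that spread may be technical. A difference between the 2 control groups does not enter it. Levels of lncRNA8276 were not analysed here, so the labels were not checked against their target. Because 1 construct raises and the other lowers the same RNA, the comparison asks which genes moved to the same side with both.

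Testis tissue is mostly germ cells on the way from spermatogonia through meiosis to sperm, held by Sertoli cells, with Leydig cells between the tubules that make testosterone from cholesterol. Meiosis begins with DNA breaks cut by the SPO11 enzyme and ends with divisions driven by the kinase CDK1, after which round spermatids build an acrosome and a tail. Long non-coding RNAs can act on nearby genes, on chromatin or on other RNAs, and no particular action is assumed here. In tissue samples like these, fewer cells of a type and less RNA per cell cannot be told apart.

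The depth was 13485472 to 15771652 counts per library, with 18616 to 18889 genes detected. The labelled tissue bore its markers: all 28 round spermatid genes, all 26 Sertoli cell genes and all 21 Leydig cell genes on the lists used were abundant enough to test. Control_3NC 2 stood apart, since its correlation with the others had a median of 0.948, where the remaining libraries had 0.974 to 0.984. Control_5NC 2, control_5NC 3 and overexpression 2 had the lowest totals, at most 13847264 against at least 15252011 elsewhere.

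Albumin, the main protein that liver secretes into blood, showed the clearest shared change. Alb was near 0 in every control library and present in every construct library. The fitted contrast averages overexpression minus control_5NC and knockdown minus control_3NC with equal weight, and edgeR's quasi-likelihood test called 43 of 16395 tested genes at an adjusted p below 0.05 (0.262% of those tested), 22 higher (0.134%) and 21 lower (0.128%) in the constructs. Unadjusted p was below 0.05 for 2921 genes (17.8%), 1487 higher and 1434 lower. The called rises had a median of 1.06 on the log2 scale (0.32 to 6.35), against -0.44 for the called falls (-4.35 to -0.31). A gene near 0 on 1 side can pass the filter on low counts through the other side and then show a large ratio. Alb, Serpina3k, 2010109A12Rik and Gm21320 among the rises and Gm15114 among the falls are such genes. The sizes of rises and falls therefore depend in part on the filter. Of the 43 genes, 12 rose by more than 1 on that scale, 3 fell by more than 1, and 17 moved by under 0.5. The counts of 12 of the 43 hold fractions, which can come from reads divided among genes of like sequence, so their levels are uncertain; these are called shared counts. The median over all tested genes was -0.02.

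**Figure D1:**
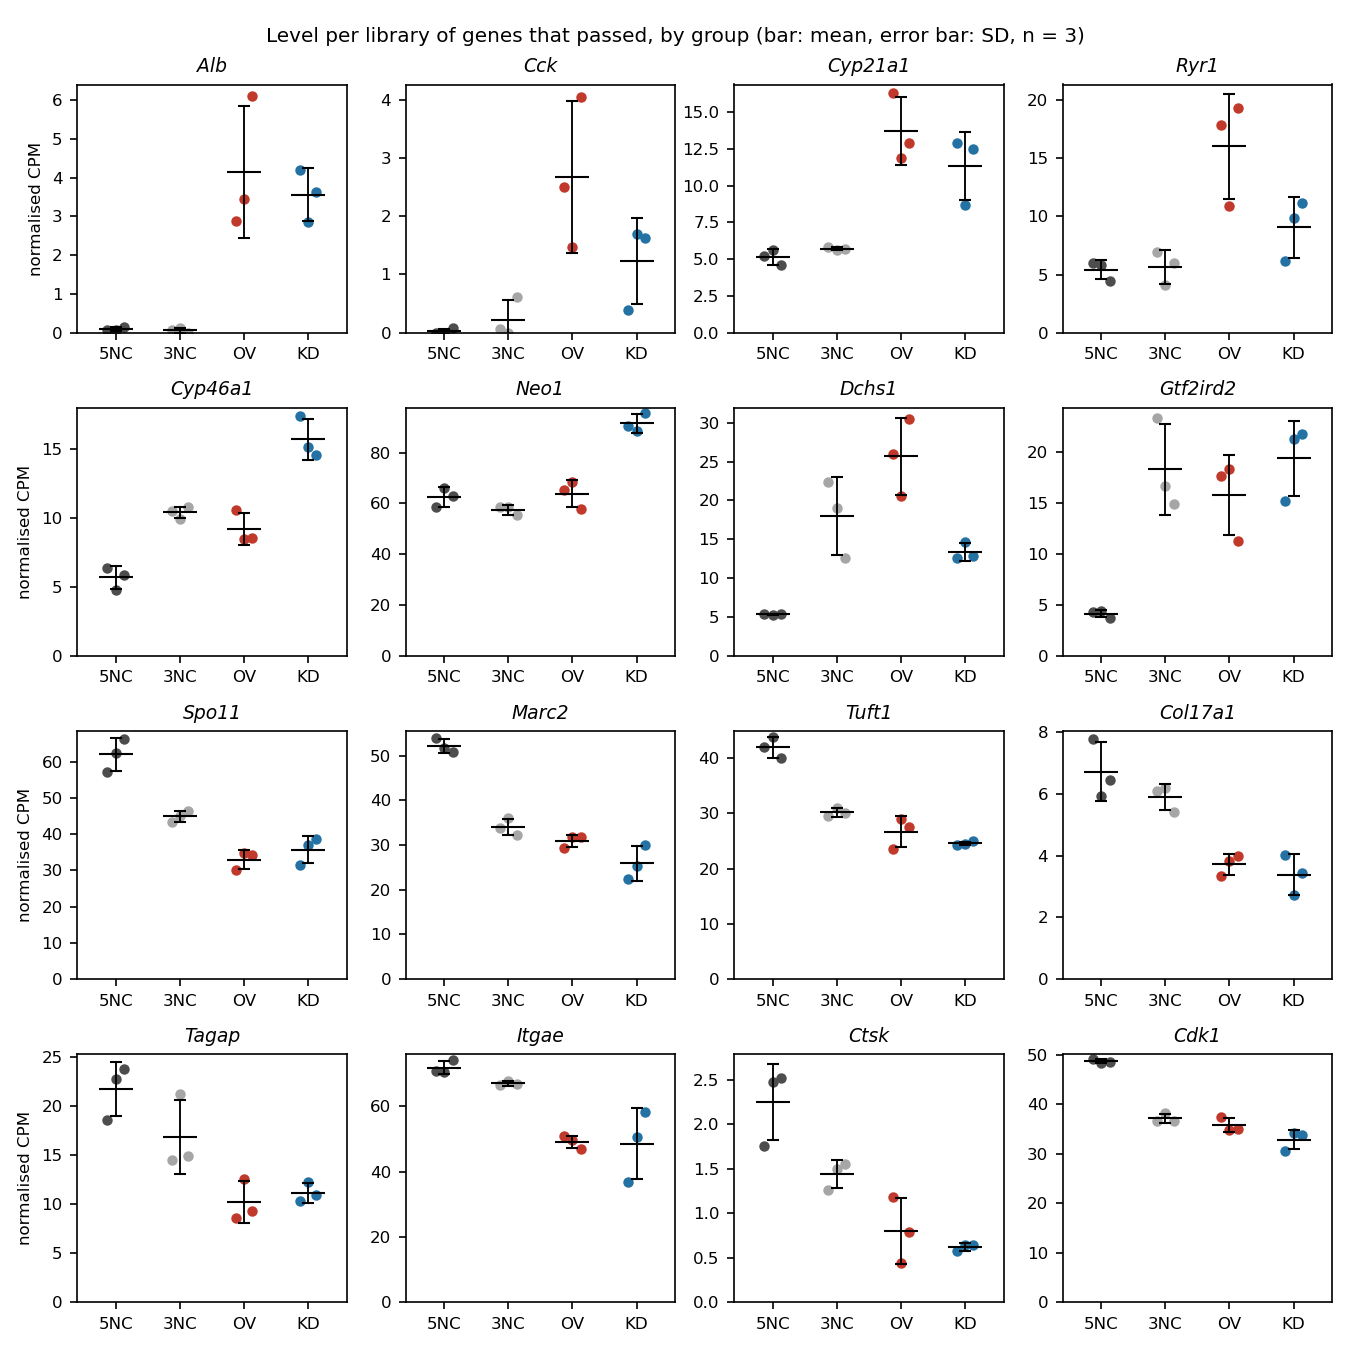
Normalised CPM (counts scaled to a common library size by TMM) on axes that start at 0, for 16 genes that passed, in control_5NC (5NC), control_3NC (3NC), overexpression (OV) and knockdown (KD). Points are libraries, bars the mean and error bars the SD over 3 libraries; Alb is near 0 in both controls, and Spo11 is highest in control_5NC, intermediate in control_3NC and lowest in both construct groups.

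Levels are given as CPM, the count of a gene as a share of the TMM-scaled library. Alb was at 0.0628, 0.0706 and 0.144 CPM in control_5NC 1, 2 and 3 and at 0.0663, 0.125 and 0 CPM in control_3NC 1, 2 and 3. It was at 2.89, 3.45 and 6.10 CPM in overexpression and 4.21, 2.85 and 3.63 CPM in knockdown. Every construct library lay above every control library, on 349 counts in all against 7, a ratio of 49.5 (95% counting interval 23.8 to 124, counting error only). The log2 fold change was 5.49 ± 0.38 (SE, adjusted p = 3.34e-05), made of 5.39 ± 0.52 in overexpression and 5.6 ± 0.54 in knockdown, and the difference of these effects was -0.22 ± 0.82 (adjusted p = 0.983). The gene lies on chromosome 5 at 90460870 to 90476602 (GRCm38.p6, RefSeq). Its promoter is shown because the gene moved alike with both constructs (RefSeq, chr5:90460620-90460919, plus strand, 250 bases before to 50 after the start). Capitals mark GTTAAT, part of the site of the liver factor HNF1, and CCAAT, which NF-Y and C/EBP proteins can bind, each searched on both strands, so that ATTGG is CCAAT read on the other strand.

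Alb promoter: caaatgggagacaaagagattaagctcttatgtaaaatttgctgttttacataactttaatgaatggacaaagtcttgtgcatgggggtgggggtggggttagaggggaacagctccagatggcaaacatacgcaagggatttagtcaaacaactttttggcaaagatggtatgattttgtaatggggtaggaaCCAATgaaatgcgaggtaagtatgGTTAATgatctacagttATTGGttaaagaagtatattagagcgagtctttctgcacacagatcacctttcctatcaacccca

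GTTAAT was found once, from 32 to 27 bases before the start, and CCAAT at 56 to 52 bases before it and, on the other strand, at 15 to 11 bases before it. Of 27025 mouse promoters of this length, 7.2% hold GTTAAT and 37.9% hold CCAAT. A match describes the letters only.

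Of 31 liver secreted protein genes, 18 were abundant enough to test and 2 rose, Alb and Serpina3k. These 2 were kept by the filter on low counts through their construct libraries, since no control library had more than 2 and 3 counts of them. Over all 31, tested or not, the mean CPM was higher in constructs for 27 and lower for 4, beside 9408 higher and 11079 lower of all genes in the table. The member with the most counts, Apoh, a phospholipid-binding plasma protein, was at 35.6 to 44.0 CPM in constructs and 31.1 to 43.2 CPM in controls (0.23 ± 0.081, adjusted p = 0.19), and the haemoglobin-binding protein gene Hp was at 30.2 CPM in control_3NC 2 and at most 3.72 CPM elsewhere. Serpina3k, a serine protease inhibitor of plasma, was at 0.0628, 0 and 0.144 CPM in control_5NC and 0.199, 0.0626 and 0.203 CPM in control_3NC. It was at 1.05, 0.661 and 0.862 CPM in overexpression and 0.639, 0.648 and 0.842 CPM in knockdown. The ranges did not overlap, on 71 counts against 10, a ratio of 7.05 (3.62 to 15.3), and the log2 fold change was 2.83 ± 0.41 (adjusted p = 0.0196). Fgb, the fibrinogen beta chain, was at 0.90 and 0.92 CPM on average in control_5NC and control_3NC and at 1.74 and 1.61 CPM in overexpression and knockdown. Its 6 construct libraries lay above its 6 control libraries, and its adjusted p was 0.107. Hpx, the haem carrier hemopexin, was at 1.48 ± 0.45 on the log2 scale with overlapping ranges (adjusted p = 0.151).

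The 13 liver genes too sparse to test gave 369 counts in constructs and 95 in controls, with more counts in constructs for 11 of them. The share over all untested genes was not computed. Such a tilt was not particular to liver genes: 9 of 11 untested epididymis and duct genes had more counts in constructs (3455 against 104 in all). Of 3 untested leukocyte genes 0 did (62 against 632). Ttr, the thyroid hormone carrier transthyretin, had 32 counts spread over all 6 construct libraries and 0 in the 6 control libraries. Gc, the vitamin D carrier, had 61 counts against 3, Mup3, a major urinary protein, 28 against 1, and Cyp3a11, a drug-metabolising cytochrome P450 of liver, 24 against 1. Afp, albumin's fetal relative, went the other way with 27 against 30, and Apoa4 had 0 against 1. Summed over the list, levels were 71.8 to 88.1 CPM in constructs and 53.7 to 83.4 CPM in controls. The top of the control range is control_3NC 2, without which it is 69.2 CPM, and those summed ranges no longer overlap. Both sums include Alb, at 2.85 to 6.1 CPM in constructs and 0 to 0.144 CPM in controls. Sums without Alb were not computed, so the gap cannot be credited to the rest of the list.

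Steroid genes moved singly. Cyp21a1 encodes steroid 21-hydroxylase, which the adrenal cortex uses to make corticoids. Its level was 5.22, 5.65 and 4.60 CPM in control_5NC, 5.84, 5.63 and 5.68 CPM in control_3NC, 16.3, 11.9 and 12.9 CPM in overexpression and 12.9, 8.69 and 12.5 CPM in knockdown. The controls lay within a narrow band below every construct library, and the gene rose by 1.20 ± 0.13 (log2, adjusted p = 0.00204), with 1.41 ± 0.18 in overexpression and 0.99 ± 0.18 in knockdown. Hsd3b1, the 3-beta-hydroxysteroid dehydrogenase of Leydig and adrenal cells, was at 124 and 101 CPM on average in control_5NC and control_3NC and at 139 CPM in both construct groups, with an adjusted p of 0.05 that just missed the threshold. Of 21 Leydig cell and steroidogenesis genes 1 rose, Cyp21a1, and the median was 0.00. Of 10 adrenal cortex genes 7 were tested, 1 rose (Cyp21a1 again), and the adrenal enzyme genes Cyp11b1 and Cyp11b2 had 12 counts against 9 and 5 against 3 in constructs and controls. Akr1b7, a detoxifying reductase of the adrenal and male tract, was at 93.2 CPM in knockdown 1 and at most 2.92 CPM elsewhere, so that the summed adrenal range of 195 to 292 CPM in constructs has knockdown 1 at its top, against 155 to 199 CPM in controls. The next construct library was at 225 CPM, and the median of the 7 tested genes was 0.17 with or without knockdown 1. Cyp46a1, the cholesterol 24-hydroxylase of neurons, rose by 0.64 ± 0.10 (adjusted p = 0.0275), from means of 5.70 and 10.4 CPM in control_5NC and control_3NC to 9.22 and 15.7 CPM in overexpression and knockdown. Of 25 tested genes of cholesterol synthesis and uptake 0 passed by edgeR (1 at an unadjusted p below 0.05), with a median of 0.05.

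Meiotic breaks and division were represented by 1 gene each among the falls. Spo11 was at 57.2, 62.5 and 66.4 CPM in control_5NC and 43.3, 44.9 and 46.5 CPM in control_3NC. It was at 30, 34.7 and 34.2 CPM in overexpression and 31.5, 36.9 and 38.6 CPM in knockdown. All construct libraries lay below all control libraries, and the fall was by 0.62 ± 0.072 on the log2 scale (adjusted p = 0.0039). By construct the log2 fold change was -0.91 ± 0.10 for overexpression and -0.33 ± 0.10 for knockdown, while control_5NC exceeded control_3NC by 0.47 ± 0.10. Spo11 was the only one of 38 meiotic recombination and synapsis genes to pass. The next by p was Syce2, of the synaptonemal complex, at 0.41 ± 0.092 (adjusted p = 0.0947), and the list's median was -0.03. Its summed level was 2880 to 3440 CPM in constructs and 2790 to 3540 CPM in controls.

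Cdk1 was at 49.2, 48.4 and 48.6 CPM in control_5NC, 36.7, 38.3 and 36.6 CPM in control_3NC, 37.5, 34.9 and 35.1 CPM in overexpression and 30.6, 34.2 and 33.8 CPM in knockdown. Its high values were those of control_5NC, the overexpression and control_3NC libraries overlapped, and it fell by 0.31 ± 0.056 (log2, adjusted p = 0.0496). Of the 26 cell division genes 25 had a log2 fold change below 0, beside 8842 of all 16395 tested, with a median of -0.15. Cdk1 was the 1 that passed. Aurkb, the Aurora kinase of chromosome segregation, was at -0.39 ± 0.088 (adjusted p = 0.0928) and Cenpe, a kinesin of the kinetochore, at -0.29 ± 0.075 (adjusted p = 0.117). The list's median was -0.22 for overexpression minus control_5NC and -0.05 for knockdown minus control_3NC.

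Spermatid genes lay to the other side without a call. Of 28 round spermatid and acrosome genes 22 were above 0, with a median of 0.15, and the 28 genes of elongating spermatids and the sperm tail had 24 above 0 and a median of 0.17. By edgeR 0 of either list passed, and 9 and 13 were higher and 2 and 2 lower at an unadjusted p below 0.05. Cabyr, a calcium-binding protein of the sperm tail, was at 328 and 410 CPM on average in control_5NC and control_3NC and at 491 and 497 CPM in the constructs (0.43 ± 0.093, adjusted p = 0.0869). Odf1, of the outer dense fibres, was at 0.46 ± 0.13 (adjusted p = 0.131) and Sun5, which anchors the sperm head to its tail, at 0.40 ± 0.098 (adjusted p = 0.111). The medians by construct were 0.24 and 0.04 for round and 0.28 and 0.05 for elongating spermatid genes, in overexpression and knockdown. Summed round spermatid levels were 7280 to 8110 CPM in constructs and 6470 to 8330 CPM in controls, and overlapped. Without control_3NC 2 the list medians were 0.09 for round and 0.11 for elongating spermatid genes.

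**Figure D2:**
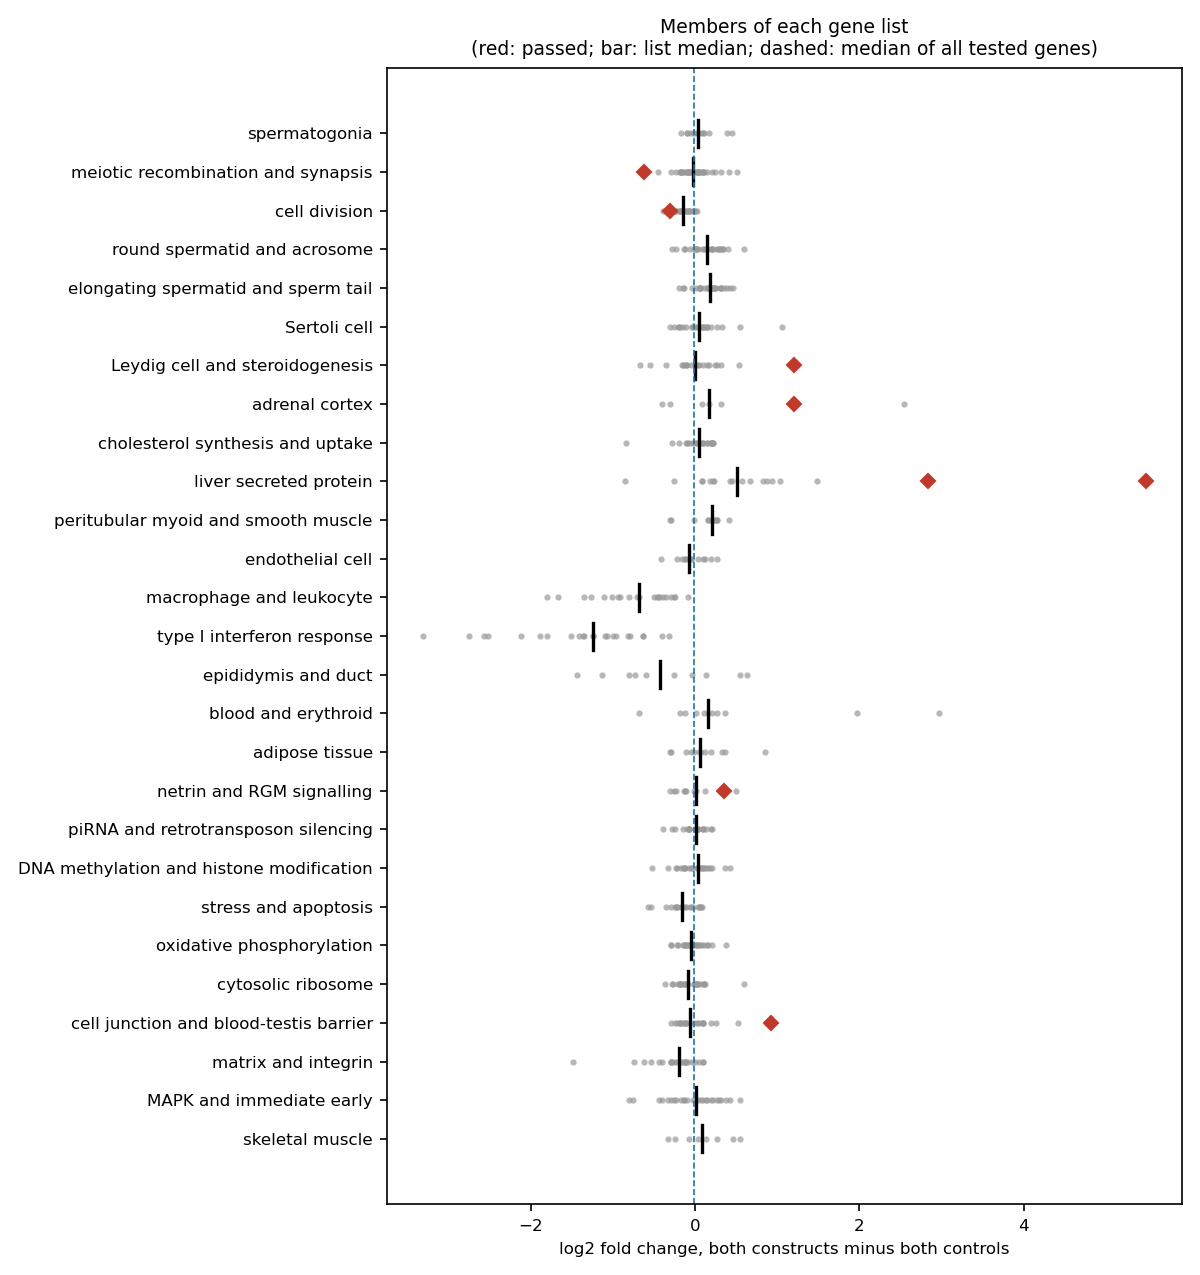
Log2 fold change, both constructs minus both controls, of each tested member of 27 gene lists; red diamonds passed, black bars are list medians and the dashed line is the median of all tested genes. Passing members number at most 2 in a list, the liver secreted protein list; interferon and leukocyte genes lie lowest.

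The other named rises were of mixed kinds. Cck, the peptide hormone cholecystokinin, was at 0, 0 and 0.0719 CPM in control_5NC and 0.0663, 0 and 0.609 CPM in control_3NC, against 2.50, 1.47 and 4.05 CPM in overexpression and 0.383, 1.69 and 1.62 CPM in knockdown. Knockdown 1 fell below control_3NC 3, so the groups overlapped, and the ratio of 176 to 11 counts was 15.9 (8.67 to 32.4; adjusted p = 0.0438). Ryr1, which encodes the ryanodine receptor of skeletal muscle, was at 6.03, 5.79 and 4.46 CPM in control_5NC, 6.90, 4.07 and 6.02 CPM in control_3NC, 17.9, 10.9 and 19.3 CPM in overexpression and 6.13, 9.85 and 11.2 CPM in knockdown. The controls were alike and overexpression the highest, for a rise of 1.12 ± 0.20 (log2, adjusted p = 0.0438). Of 15 other skeletal muscle genes, a list added after the data were seen, 8 were tested and 0 passed by edgeR (1 at an unadjusted p below 0.05), with a summed level of 16.1 to 21.6 CPM in constructs and 12.8 to 20.2 CPM in controls. Cacna1e, a voltage-gated calcium channel subunit, rose by 0.81 ± 0.12 (adjusted p = 0.0196).

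Neo1, a receptor for netrins and repulsive guidance molecules, passed through knockdown. It was at 58.6, 66.1 and 62.9 CPM in control_5NC, 58.6, 58.5 and 55.3 CPM in control_3NC, 65.3, 68.3 and 57.9 CPM in overexpression and 90.4, 88.3 and 95.6 CPM in knockdown. The 3 knockdown libraries stood above the other 9, and the averaged rise of 0.35 ± 0.060 (adjusted p = 0.0423) was 0.03 ± 0.085 for overexpression and 0.67 ± 0.085 for knockdown. The difference of the effects, -0.64 ± 0.12, had an adjusted p of 0.193. Neo1 was the 1 of 15 tested netrin and RGM signalling genes to pass, and Rgma, 1 of its ligands, was at 0.50 ± 0.16 (adjusted p = 0.165).

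In contrast, several rises came from low values in control_5NC alone. Dchs1, a large cadherin of planar cell polarity, was at 5.40, 5.22 and 5.39 CPM in control_5NC and 22.4, 19.0 and 12.6 CPM in control_3NC, beside 26.0, 20.6 and 30.5 CPM in overexpression and 12.6, 14.7 and 12.8 CPM in knockdown. Control_5NC was low against all other libraries, and the averaged rise of 0.92 ± 0.14 (adjusted p = 0.0197) was 2.27 ± 0.21 for overexpression and -0.43 ± 0.19 for knockdown. Gtf2ird2, of the TFII-I transcription factor family, was at 4.15 ± 0.357 CPM (SD, n = 3) in control_5NC and 18.3 ± 4.46, 15.8 ± 3.91 and 19.4 ± 3.67 CPM in control_3NC, overexpression and knockdown. Its averaged rise was 1.0 ± 0.16 (adjusted p = 0.0244), and the knockdown effect was 0.09 ± 0.21. Gm40011 was at 0.187 ± 0.113 CPM in control_5NC and 10.2 ± 0.867, 10.4 ± 1.56 and 9.12 ± 1.17 CPM in control_3NC, overexpression and knockdown, and A530064D06Rik, with shared counts, at 0.0654 ± 0.063 CPM and then 5.23 ± 0.725, 5.91 ± 1.37 and 5.70 ± 0.969 CPM. For both, the effect of knockdown against control_3NC was small, at -0.16 ± 0.20 and 0.12 ± 0.26.

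The test of the difference between the construct effects called 3 genes (0.0183% of those tested; 1104 at an unadjusted p below 0.05), Gm40011, A530064D06Rik and Dchs1. Differences were 5.93 ± 0.37, 6.15 ± 0.52 and 2.69 ± 0.28 on the log2 scale, with adjusted p of 2.24e-05, 0.000403 and 0.00262, under the pairing of control_5NC with overexpression and control_3NC with knockdown, which rests on the order of groups in the design text alone. For Gm40011 and A530064D06Rik the construct groups had like means, and control_5NC minus control_3NC was -5.73 ± 0.30 and -6.10 ± 0.43. For Dchs1 it was -1.75 ± 0.21. With the controls exchanged between the constructs the averaged fold changes stay as they are, while every value given for 1 construct against its control would change. Of the 43 called genes, 41 had the same sign in both pairs of groups, and 36 the larger size in overexpression minus control_5NC. The genes were called on the average of these same effects, so the agreement in sign follows in part from the selection. The shares of all tested genes with these traits were not computed. By their values, the calls hold genes that were alike in both pairs, such as Alb and Col17a1. They also hold genes whose averaged value came mainly from 1 pair, such as Neo1 and Dchs1.

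**Figure D3:**
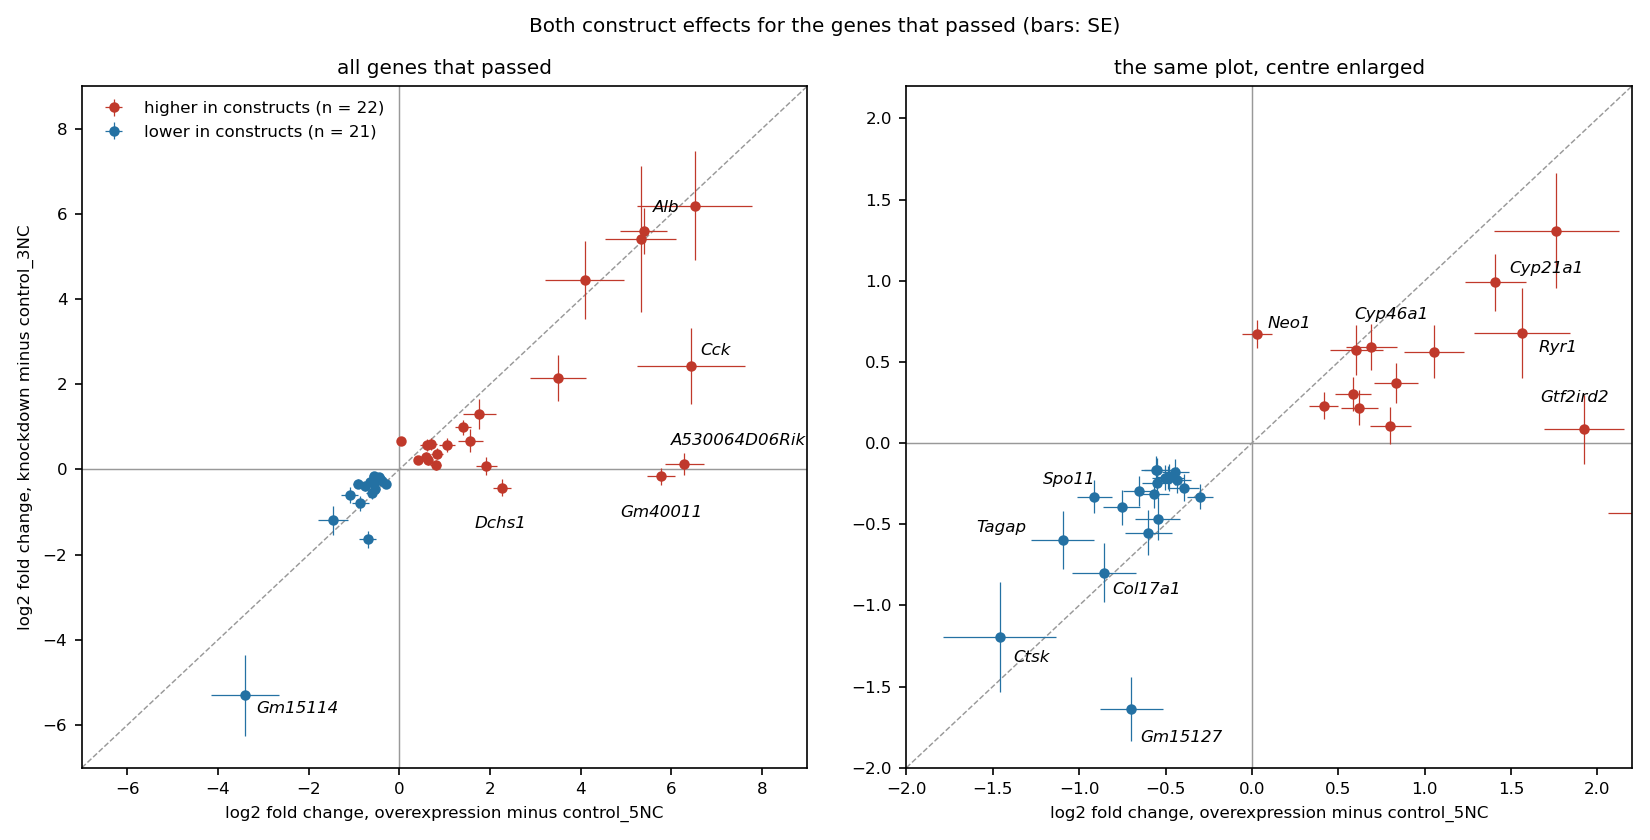
Log2 fold change of knockdown minus control_3NC against that of overexpression minus control_5NC for the 43 genes that passed, with SE bars, at full range on the left and enlarged on the right. Alb lies next to the dashed line of equal effects, at 5.39 and 5.6; most falls lie above the line, with the larger fall in overexpression, while A530064D06Rik, Gm40011 and Dchs1 lie near or below 0 for knockdown.

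The falls were alike in the order of their group means. For all 21, both construct means lay below both control means, control_3NC lay between control_5NC and the constructs, and control_5NC was the farther control. Among the 22 rises, both construct means exceeded both control means in 18 and control_3NC lay between in 15. All these genes were called by the contrast of constructs with controls, so such orders follow in part from the selection. The share of all tested genes with these orders was not computed. No overlap between the 6 construct and 6 control libraries was seen for 16 falls and 7 rises. Over all tested genes, 80 lay wholly lower (0.488%) and 54 wholly higher (0.329%).

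The other named falls were also of mixed kinds. Ctsk, the collagen-cutting protease cathepsin K, fell by 1.33 ± 0.24 (adjusted p = 0.0469), from means of 2.25 and 1.44 CPM in control_5NC and control_3NC to 0.806 and 0.624 CPM in overexpression and knockdown. Col17a1, a collagen of epithelial anchoring, was at 7.79, 5.93 and 6.47 CPM in control_5NC, 6.10, 6.20 and 5.41 CPM in control_3NC, 3.35, 3.82 and 3.98 CPM in overexpression and 4.02, 2.72 and 3.43 CPM in knockdown. Controls were alike, constructs were alike, and the fall was by 0.83 ± 0.13 (adjusted p = 0.0244). Itgae, the integrin alpha E chain, was at 70.9, 70.4 and 74.1 CPM in control_5NC, 66.5, 67.9 and 66.8 CPM in control_3NC, 50.8, 49.6 and 47.0 CPM in overexpression and 36.8, 50.6 and 58.4 CPM in knockdown. Its spread was widest in knockdown, yet no library crossed, and it fell by 0.51 ± 0.092 (adjusted p = 0.0496). Of the 24 genes on the matrix and integrin list, 0 passed by edgeR and 1 was lower at an unadjusted p below 0.05.

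Marc2, a mitochondrial amidoxime reductase, fell by 0.57 ± 0.076 (adjusted p = 0.0139), from means of 52.2 and 34.0 CPM in control_5NC and control_3NC to 31.0 and 25.9 CPM in overexpression and knockdown. Tuft1, named for the tooth enamel protein tuftelin, fell by 0.48 ± 0.067 (adjusted p = 0.0189), and Tagap, a T cell GTPase-activating protein with shared counts, by 0.85 ± 0.13 (adjusted p = 0.0197). Hspb7, a small heat shock protein of heart, fell by 0.58 ± 0.098, and Shisa3, which holds back WNT and FGF receptors, by 0.44 ± 0.061. Zfp110, a zinc finger gene, fell by 0.40 ± 0.059, and Nxpe3 and Tmem202 by 0.36 each (adjusted p 0.0189 to 0.0438 for these 5). Except for Shisa3, Zfp110 and Nxpe3, the ranges of constructs and controls were apart for these genes. The remaining named rises were small: Antxrl by 0.45 ± 0.082 and LOC100862043 by 0.60 ± 0.090, both with shared counts, and Arl11, a small GTPase of the ARF family, by 0.42 ± 0.077 (adjusted p 0.0196 to 0.0496).

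Positions were compared within 1 Mb, a distance chosen after the values were seen. Another called gene lay that near to 13 of 41 placed called genes (31.7%), in 8 pairs, beside 4.79% of all placed tested genes. Spo11 on chromosome 2 (172977379 to 172993576) lies 89.2 kb from Gm40011 (173082780 to 173138200) and moved the other way, and between and around them Rae1, Rbm38 and Ctcfl did not pass (0.21 ± 0.068, 0.22 ± 0.13 and 0.16 ± 0.15). Gm40011 spans the place of Ctcfl, and with no strand setting given the reads of these overlapping genes cannot be told apart. Zfp110 and Chmp2a, chosen after its values were seen (a subunit of the ESCRT membrane-cutting complex), lie on chromosome 7 with 181.4 kb between them and both fell, by 0.40 and 0.31. Zscan22 between them was at -0.36 ± 0.078 (adjusted p = 0.0869) and Trim28, a corepressor, at 0.04 ± 0.074. Tcp10a, of the t-complex, and Tagap on chromosome 17 both fell, by 0.35 and 0.85, with shared counts in both.

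A stretch of the X chromosome held 3 called genes that went in opposite ways, chosen after their values were seen. Gm15114 was at 6.03, 5.93 and 6.83 CPM in control_5NC, 3.78, 4.32 and 5.61 CPM in control_3NC, 0.131, 0.147 and 1.46 CPM in overexpression and 0, 0 and 0.324 CPM in knockdown. All controls lay far above all constructs, on 484 counts against 31, and the log2 fold change was -4.35 ± 0.61 (adjusted p = 0.0196). Gm15127 fell by 1.17 ± 0.13 (adjusted p = 0.0039), from means of 8.26 and 6.05 CPM to 5.09 CPM in overexpression and 1.94 CPM in knockdown, and Gm15128 rose by 1.54 ± 0.25 (adjusted p = 0.0345). No construct library of these 3 genes lay within the control range, and all 3 have shared counts. The 15 genes from Gm15128 to Tmem29, most of them named as predicted genes, summed to 177 to 229 CPM in constructs and 185 to 246 CPM in controls. Most of the sum came from Gm20153 and Gm15104, at means of 63.3 and 86.6 CPM in constructs and 61.1 and 80.2 CPM in controls. The overlap of the summed ranges therefore says little of the other genes. Among those that did not pass, Luzp4 and Gm15097 were at -0.69 ± 0.15 and -0.68 ± 0.16, and Gm10439 at 0.88 ± 0.21. Ott, of the same stretch, was listed at 0 in 1 library each of both control groups and of knockdown, and Gm15093 was at 0 in all construct libraries and 2 control libraries.

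**Figure D4:**
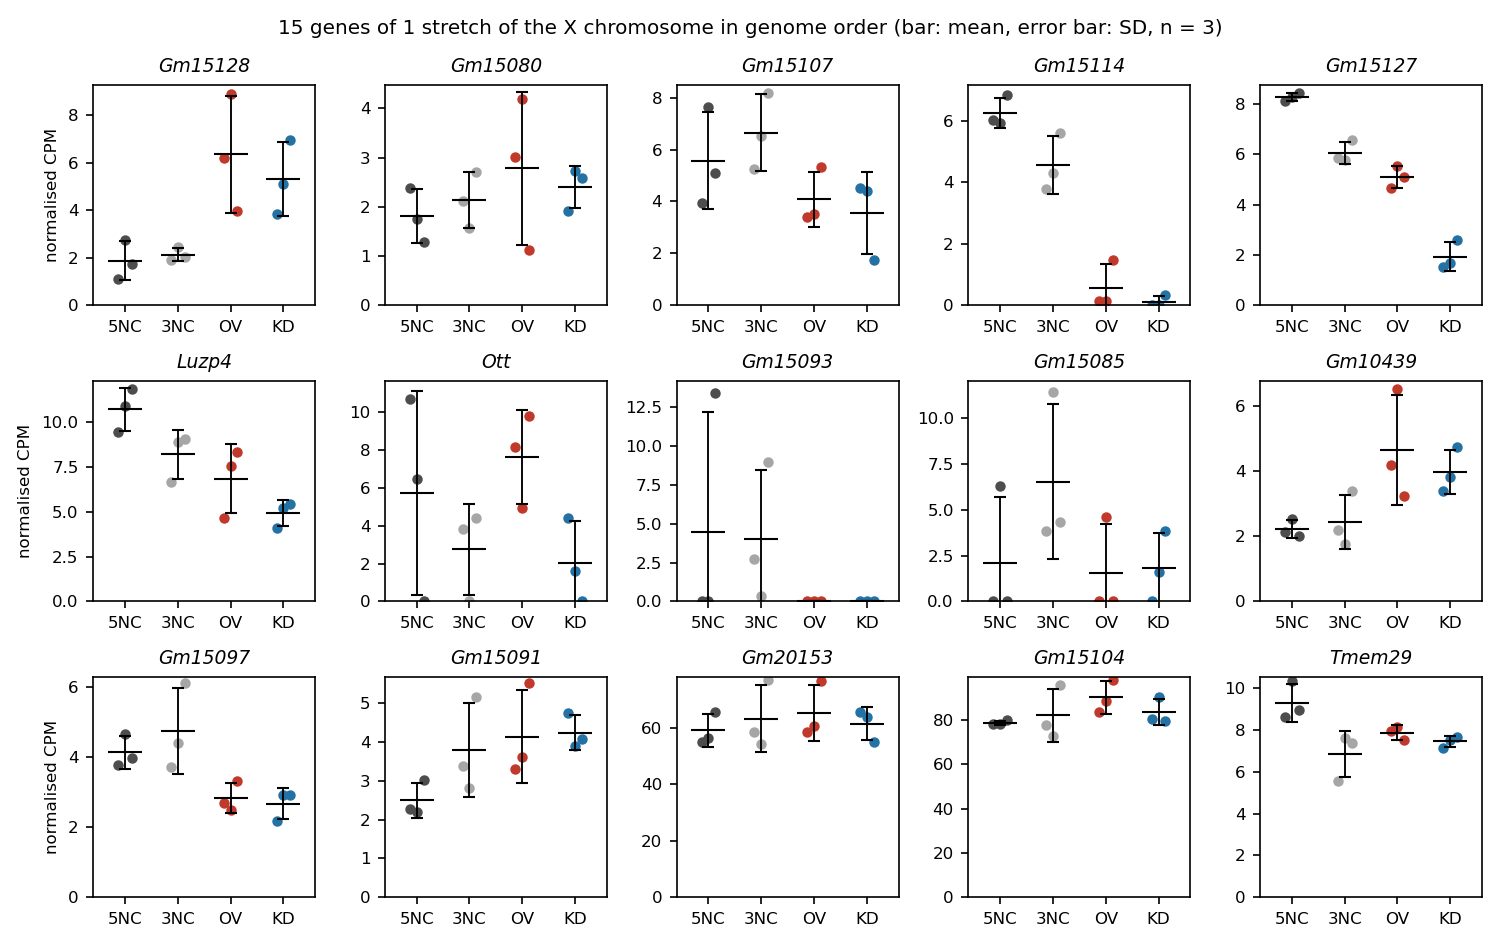
Normalised CPM by library on axes that start at 0 for 15 genes of the X stretch in genome order, grouped as control_5NC (5NC), control_3NC (3NC), overexpression (OV) and knockdown (KD), with mean and SD (n = 3). Gm15114 and Gm15127 are lower and Gm15128 higher with both constructs, while the more abundant Gm20153 and Gm15104 are level.

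The promoters of Gm15127 (chrX:148663354-148663653) and Gm15114 (chrX:148488699-148488998), both on the plus strand of GRCm38.p6 in RefSeq, are shown because both genes fell. Each gene has shared counts, which does not say with which other gene. Capitals mark runs of at least 10 bases that both hold in order.

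Gm15127 promoter: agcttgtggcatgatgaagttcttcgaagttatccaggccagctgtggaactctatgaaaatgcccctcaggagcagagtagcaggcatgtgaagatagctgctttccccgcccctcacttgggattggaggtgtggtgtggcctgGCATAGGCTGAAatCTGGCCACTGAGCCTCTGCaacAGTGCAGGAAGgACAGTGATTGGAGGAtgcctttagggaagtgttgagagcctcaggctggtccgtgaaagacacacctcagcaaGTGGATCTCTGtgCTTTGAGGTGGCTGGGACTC
Gm15114 promoter: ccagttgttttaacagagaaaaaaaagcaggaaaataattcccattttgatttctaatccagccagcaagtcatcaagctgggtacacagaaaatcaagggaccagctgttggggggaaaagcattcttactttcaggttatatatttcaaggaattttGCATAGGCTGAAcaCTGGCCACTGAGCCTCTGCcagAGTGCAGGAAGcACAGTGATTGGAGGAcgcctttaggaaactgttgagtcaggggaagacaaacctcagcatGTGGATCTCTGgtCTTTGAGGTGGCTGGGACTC

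The shared runs number 6 and cover 88 bases, the longest of 20. Aligned with gaps allowed, the promoters match at 40.7% of the first 150 bases and at 82.7% of the last 150, which include the start of the transcript. Likeness of the transcripts themselves was not measured, and whether reads were divided between these genes was not tested.

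Immune genes lay lowest of all lists, with their highest summed levels in 1 library. All 23 type I interferon response genes in the table were below 0, with a median of -1.25, and all 21 tested macrophage and leukocyte genes, with a median of -0.68, while 0 of either passed by edgeR (5 and 1 at an unadjusted p below 0.05). Summed interferon levels were 926 CPM in control_3NC 2, 127 to 284 CPM in the other controls and 118 to 177 CPM in constructs, and leukocyte levels 1080, 149 to 207 and 157 to 199 CPM. Without control_3NC 2 the medians were -0.08 and -0.02. For overexpression minus control_5NC, a pair that does not hold that library, they were -0.38 for interferon and -0.1 for leukocyte genes. For knockdown minus control_3NC they were -2.17 and -1.24. Rsad2, an antiviral enzyme, was at 37.1 CPM in control_3NC 2 and at most 0.847 CPM elsewhere. Epididymis and duct genes followed knockdown 1, at 848 CPM summed against at most 312 CPM in the other constructs and 266 to 654 CPM in controls, and 0 of the 10 tested passed by edgeR (1 at an unadjusted p below 0.05). Without control_3NC 2, 29 genes passed, 26 of them among the 43, and without knockdown 1, 28 genes passed, 23 of them among the 43.

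Of the remaining cell types, the median was 0.05 for 26 genes of Sertoli cells, 0.04 for 16 of spermatogonia, 0.21 for 13 of peritubular myoid cells and -0.07 for 15 of endothelium. Piwi-interacting RNA pathway genes, which silence transposons, were at 0.01 over 22, genes of DNA methylation and histone modification at 0.03 over 31, oxidative phosphorylation genes at -0.04 over 28 and cytosolic ribosome genes at -0.09 over 25. Medians were -0.16 for stress and apoptosis genes, -0.20 for matrix and integrin genes, 0.00 for MAPK and immediate early genes, 0.06 for adipose genes and 0.16 for blood genes. By edgeR 0 members of these 13 lists passed, with 0 to 5 per direction at an unadjusted p below 0.05 in each. Of 22 junction genes Dchs1 alone passed, and their median was -0.06. Without control_3NC 2 the medians were 0.00 for stress and apoptosis genes, 0.01 for matrix and integrin genes, 0.02 for ribosome genes, 0.13 for endothelial genes, 0.13 for MAPK genes and 0.04 for junction genes. Without knockdown 1 they were 0.04 for peritubular myoid genes and -0.15 for adipose genes.

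The calls depended on the controls used. The constructs against control_3NC alone gave 1 gene, Alb (5.71, adjusted p = 0.00168; 1802 genes at an unadjusted p below 0.05), and against control_5NC alone 532 genes. These comparisons share the construct libraries and were added after the data were seen. Against control_3NC alone the log2 fold change was 1.13 for Cyp21a1 (adjusted p = 0.0955), -0.39 for Spo11 (0.417), 0.04 for Dchs1 (0.927), -0.07 for Gtf2ird2 (0.897) and -0.06 for Gm40011 (0.902), so the last 2 turned direction. Against control_5NC alone the values were 1.27, -0.85, 1.79, 2.07 and 5.68. Single libraries moved the count from 6 (without control_5NC 3, knockdown 2 or overexpression 1) to 300 (without overexpression 2), with 266 without control_3NC 3. It was 18, 15, 13 and 12 without control_5NC 1, control_5NC 2, knockdown 3 and overexpression 3. Alb, Cyp21a1, Spo11, Gm40011 and A530064D06Rik passed in all 12 of these fits. Among the other named genes, Marc2 passed in 9, Tuft1 and Shisa3 in 8 and Cacna1e in 7. Gtf2ird2, LOC100862043 and Zfp110 passed in 6, and Dchs1, Tagap and Tmem202 in 5. Cck, Cyp46a1, Col17a1 and Itgae passed in 4, and Ryr1 and Hspb7 in 3. Neo1, Ctsk, Antxrl, Arl11 and Nxpe3 passed in 2. The other called genes, among them Serpina3k, Cdk1, Gm15114, Gm15127 and Gm15128, were not followed singly through these fits.

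**Figure D5:**
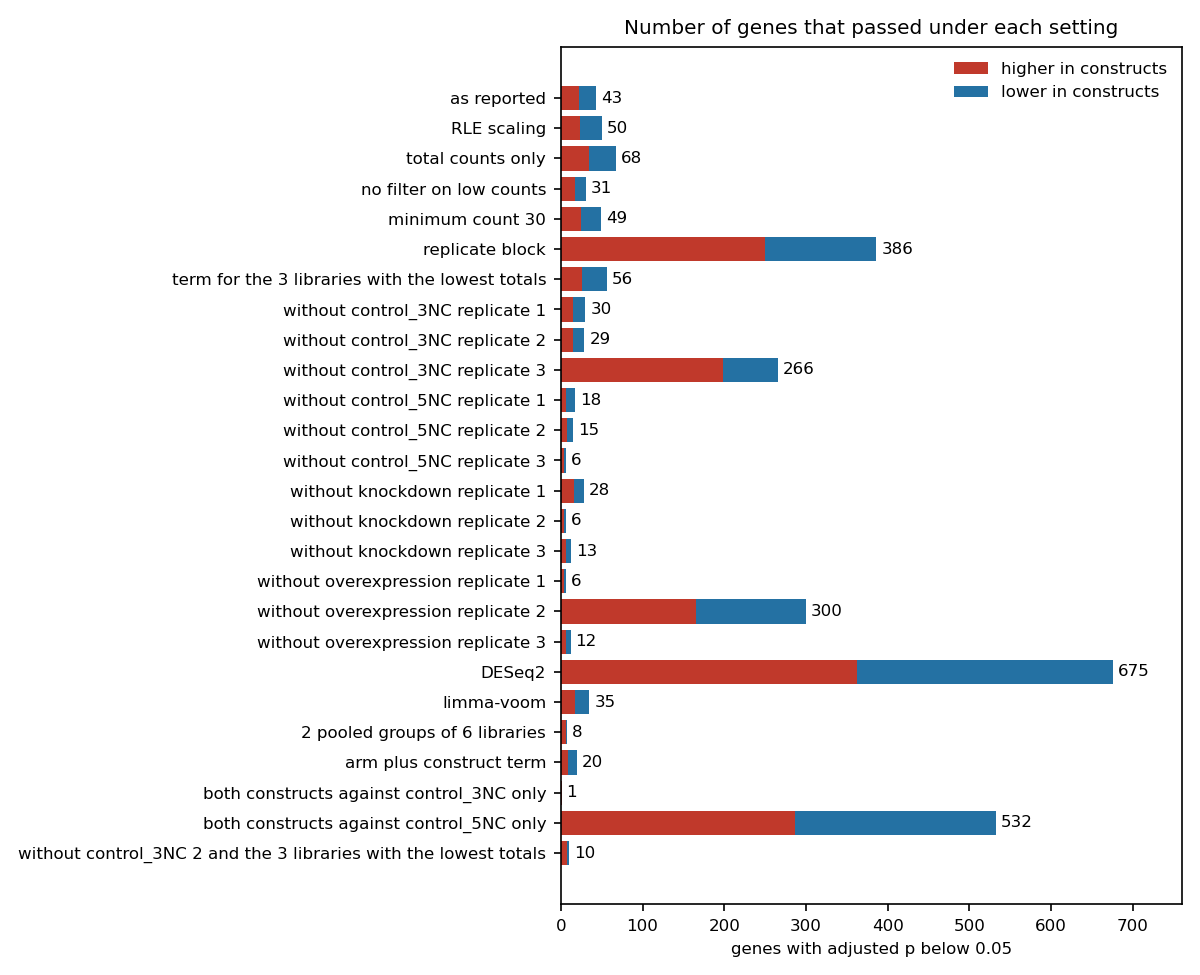
Number of genes that passed (horizontal axis) under each way of fitting the comparison, split into higher (red) and lower (blue) in constructs. The number runs from 1 against control_3NC only to 675 by DESeq2, with 43 as reported.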

How the data were processed

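For 12 mouse testis RNA-seq libraries the authors deposited a gene table of estimated counts (so named in its headers), 88.2% of them whole. Reads were placed on mm10, per the submitters' processing notes. For aligner, counter, annotation and strand setting, the setting is not given in the sources used here. The table's 18 columns of other samples were not used. Of 20788 gene identifiers, 20630 matched RefSeq (GRCm38.p6), the source of positions and promoters (30 of the 43 called genes had a promoter entry).

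After rounding, edgeR 4.0.16 (R 4.3.3) was used. Its filterByExpr selected genes (minimum count 10; the rest held 0.0707% of counts), libraries were scaled by TMM, and a robust quasi-likelihood model with 1 mean per group was fitted (biological coefficient of variation 19.7%). Benjamini-Hochberg adjustment ran over all 16395 tested genes, with a threshold of 0.05. Levels are TMM-normalised CPM, and log2 fold changes carry the SE of the fit. Genes named were the 12 largest rises and falls that passed with at least 1 CPM and no predicted name, up to 4 members of lowest p per list, and up to 5 per direction for the difference of effects. The comparison, members and gene lists were chosen with earlier results of these data known. The skeletal muscle list and 3 alternatives were added after seeing the data.

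Replicate libraries differed by more than counting noise (chi-square over its degrees of freedom, 3.08 to 39.7), and each was entered as 1 replicate. That spread may be technical and does not show that the libraries are from different animals. Alternatives were other scalings, filters, a replicate block, a term for low totals, DESeq2 1.42.0, limma 3.58.1, other designs and leaving out libraries. On counts simulated from these libraries (16259 genes tested), this comparison found 55.2% of changes of 1.5-fold. It found 79.1% of those of 2-fold and 89.4% of those of 4-fold, while 5.1% of its calls were false. Whether these percentages hold for the measured counts, where the calls depended on the control group used, was not tested. Counting intervals cover counting error only, as the labels mention no molecular identifiers and reads need not be independent molecules.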

Additional observations from a re-analysis of the deposited data

Results flagged for a closer look

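Among 106 checks of 6 libraries for 1 lying far from the others, 11 did so, and chance alone marks about 1 in 20. In the controls, control_3NC 3 had the high value of Cck, the cholecystokinin gene, at 0.609 CPM with the next at 0.0719. Control_3NC 2 had the highest summed level of type I interferon genes (926 CPM, next 284), leukocyte genes (1080 CPM, next 207), matrix and integrin genes (1980 CPM, next 1130) and Sertoli cell genes (1900 CPM, next 1580).

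In the constructs, knockdown 1 had the highest summed level of epididymis and duct genes (848 CPM, next 312), peritubular myoid genes (677 CPM, next 536) and adrenal cortex genes (292 CPM, next 225), and the lowest of Leydig cell genes (1270 CPM, next 2170). Overexpression 2 had the highest summed level of meiotic recombination genes (3440 CPM, next 3070) and of stress and apoptosis genes (1510 CPM, next 1400).

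Overexpression minus control_5NC differed from knockdown minus control_3NC, by the test of that difference, for Gm40011 by 5.93, for A530064D06Rik by 6.15 and for Dchs1 by 2.69 on the log2 scale. The pairing of controls with constructs rests on the order of groups in the design text alone. In each gene control_5NC was the low group. For Gm40011 and A530064D06Rik control_5NC alone lay apart, with control_3NC, overexpression and knockdown at like levels.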

How the results depend on the processing

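The 43 genes became 68 with total counts only, 386 with the replicate number as a block, 675 by DESeq2, 20 with a term for the pair of groups plus 1 for the construct, and 8 with the libraries pooled into 2 groups. Added after seeing the data, the count was 1 against control_3NC only, 532 against control_5NC only, and 10 without control_3NC 2 and the 3 libraries with the lowest totals. The 3 genes for the difference of effects became 6 with the block and 53 by DESeq2. Leaving out 1 library at a time gave 6 to 300 genes, and 3 to 12 for the difference. The cause was not tested, beyond that each such fit has fewer libraries. Other scaling, filters, the term for low totals and limma-voom gave 31 to 56 genes.

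Of the values of those named genes that were followed through the fits, 386 kept direction and call, 256 lost the call, and 2 reversed. The 2 were Gtf2ird2 (-0.07) and Gm40011 (-0.06) against control_3NC only. Of 18 same-number pairs of libraries 8 correlated above 0.1, and 8 of 12 libraries correlated best with their own number. The mean correlation was 0.0653 for same-number pairs and -0.0333 for the other pairs. Whether replicate numbers mark paired samples is not known, so the block result of 386 genes (250 higher, 136 lower) rests on shared numbers only. The median of the 18 tested liver genes was 0.51 and ran from 0.23 (minimum count 30) to 0.94 (no filter), with 0.36 without knockdown 1. Depth limits the genes with a few counts, such as Serpina3k and the untested liver genes.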

Other observations

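Called genes not described above, chosen after their values were seen, add a few values. 2010109A12Rik was at 0 to 0.282 CPM in controls and 0.907 to 4.84 CPM in constructs, a ratio of 246 to 12 counts of 20.4 (95% counting interval 11.4 to 39.9). Gm21320, with shared counts, had 61 counts in constructs and 0 in controls, a ratio whose lower counting bound is 15.9. Gm5923, also with shared counts, was at 8.54 ± 6.08 CPM in overexpression and at most 0.454 CPM in any other library.

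Gatad2b, a subunit of the NuRD chromatin complex, rose by 0.32 ± 0.059 (log2, adjusted p = 0.0496 by edgeR). Rfx8, of the RFX family of transcription factors, fell by 0.36 ± 0.052 (adjusted p = 0.0196), Jagn1, an endoplasmic reticulum protein, by 0.35 ± 0.059 (adjusted p = 0.0423), and Trappc12, of a vesicle tethering complex, by 0.33 ± 0.058 (adjusted p = 0.0438).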
